A study of Mus musculus with 2 samples.

Results

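Nonclassical monocytes were taken as the barcodes that carried at least 1 UMI (unique molecular identifier, a tag for 1 captured transcript) of Ace, at least 2 UMIs of Ace and Treml4 together, at least 1 UMI of Csf1r and fewer than 3 UMIs of F13a1. The rule found 219 cells among the 17459 that had 500 or more UMIs, 300 or more genes and no more than 10% mitochondrial UMIs. Of these, 147 came from 10665 cells of femur bone marrow and 72 from 6794 cells of ectopic bone marrow. The ectopic marrow had formed in bone raised under the skin of C57BL6 or Cxcl12-GFP mice by 8 µg of BMP-2, a bone-forming growth factor, carried on 40 mg of β-TCP, a calcium phosphate ceramic, and was taken 4 weeks after implantation. Femur marrow came with no implant named in its labels. In both libraries the hematopoietic cells were from C57BL6J (WT) mice and the CXCL12-abundant reticular (CAR) stromal cells from Cxcl12-GFP mice, freed with collagenase, depleted of hematopoietic and endothelial cells for the CAR fraction, sorted as live cells and mixed before loading on the 10x Genomics Chromium 3ʹ v3.1 kit. There was 1 library per tissue, and the number of animals in each is not given in the sources used here, so no test was run and no difference could be checked in a replicate. All intervals are exact 95% intervals and cover counting error only.

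Nonclassical monocytes are the Ly6C-low monocytes of the mouse that crawl along the inner wall of blood vessels, clear debris and help repair the endothelium. Most arise from Ly6C-high classical monocytes, a conversion that depends on the transcription factors NR4A1 and C/EBPβ, and they rely on signals through the CSF1 and fractalkine receptors. Bone marrow holds cells at several steps of this conversion as well as mature ones.

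The 147 femur members held 1419805 UMIs (median 8418 per cell, range 1694 to 35198) and the 72 ectopic members 1040765 (median 12071.5, range 3031 to 42809), so the ectopic cells held more UMIs each, and mitochondrial UMIs had medians of 1.49% and 1.48%. The 2 libraries shared 26 barcodes, none of which was a member in either library. Some members also carried RNA of another lineage: 25 of the femur cells (17%) and 20 of the ectopic cells (27.8%) were called doublets, held at least 5% neutrophil-list UMIs, or held at least 10 UMIs of another lineage's list. These cells had medians of 16455 and 25249.5 UMIs, against 7715 and 8915.5 in the 122 and 52 members without such RNA. The 10 neutrophil genes together stood at 38134 CPM (UMIs of a gene per 1000000 UMIs of the summed cells) in femur members and 107309 CPM in ectopic members, but at 2008 and 1442 CPM once those cells were left out. Differences between the tissues are therefore given with and without them, and ratios over classical monocytes where leaving them out moves a named gene by over 1.5 times. The limit of 10 UMIs used the lists of B, T and NK, erythroid, CAR, progenitor and plasmacytoid dendritic cells, the last without Tcf4 and Runx2. The list of conventional dendritic cells was not used for it.

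**Figure D1:**
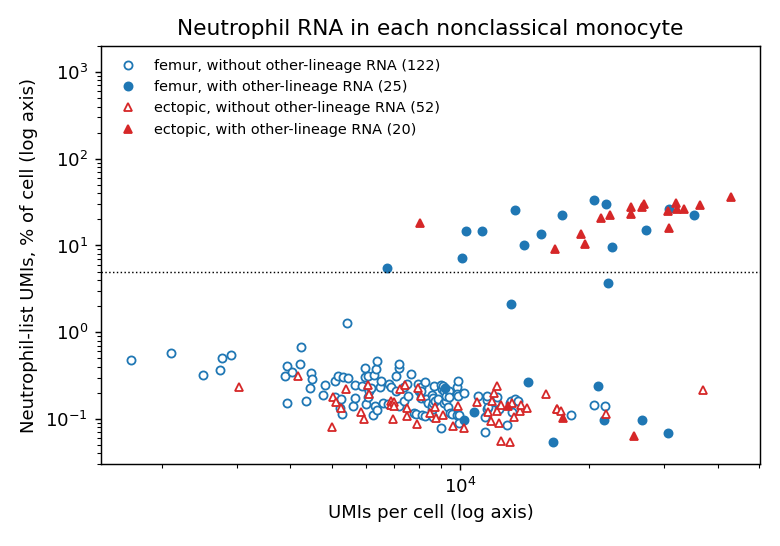
Share of each member's UMIs (y, percent, log axis) that came from 10 neutrophil genes, against the cell's total UMIs (x, log axis), for femur (circles) and ectopic (triangles) members. Filled points are the 25 femur and 20 ectopic members with RNA of another lineage, and the dotted line marks 5%. Above the line lie 14 femur and 17 ectopic cells, all of them filled.

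All 5 marker genes had a UMI in most members of both tissues. Ace, the angiotensin-converting enzyme, had a median of 3 UMIs per cell in both libraries, with a highest value of 10 (femur) and 21 (ectopic), at 387 (356 to 421) and 307 (274 to 342) CPM. Treml4, a receptor of the TREM family that binds dying cells, had medians of 2 and 2.5 UMIs and stood at 298 (270.2 to 328) and 217 (189.8 to 247) CPM. Ace, Treml4, Csf1r (664 and 506 CPM) and F13a1 (12 and 14.4 CPM) chose the cells, so their levels describe the choice. The remaining values were free to differ.

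Adgre4, an adhesion-type receptor of the F4/80 family, had a median of 10 UMIs per femur member (range 0 to 42) and 11.5 per ectopic member (0 to 69), and stood at 1271 (1213 to 1331) and 886 (829.6 to 945) CPM. Only 2 femur and 1 ectopic members had no Adgre4 UMI. Pparg, the nuclear receptor that drives lipid uptake genes, had medians of 5 and 4 UMIs with highest values of 26 and 32, and was at 0 in 14 and 10 cells. Cd36, a scavenger receptor for fatty acids and oxidized lipoproteins, ranged from 0 in 35 femur and 12 ectopic members to 58 and 30 UMIs, with medians of 3 and 4. The values of all 3 genes overlapped between the tissues, as the plot of marker UMIs per cell shows.

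**Figure D2:**
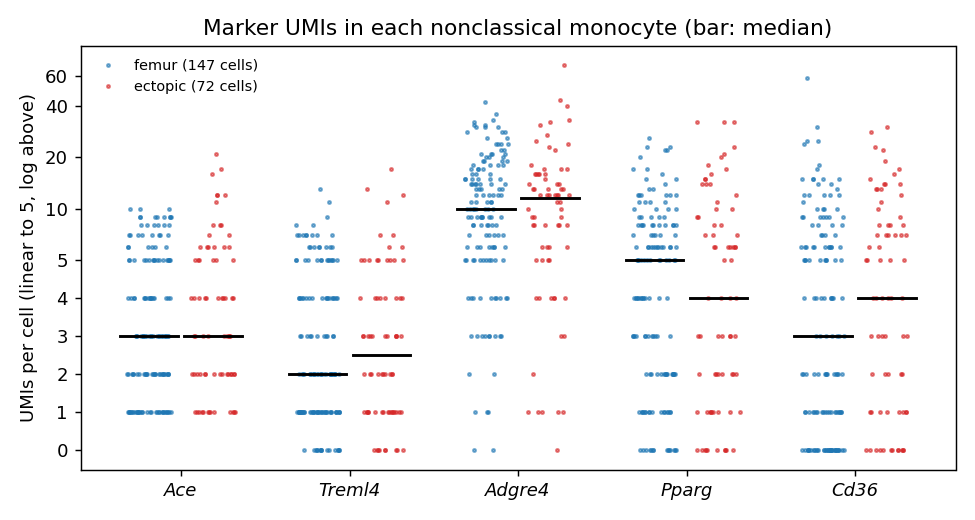
UMIs of 5 marker genes (y, linear to 5 and logarithmic above) in each of the 147 femur and 72 ectopic members. Each point is a cell and each bar a median; Adgre4 has the highest medians, 10 and 11.5 UMIs, and the 2 tissues overlap for every gene.

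Ace chose the members, so its spread over cell types partly describes the choice. Of all Ace UMIs in the filtered cells, 74.6% of the femur's and 69.3% of the ectopic library's lay in members. Most of the rest lay in cells outside the types named here. Dendritic cells stood at 4.42 and 1.08 CPM and CAR cells at 1.33 and 1.77 CPM. Neutrophils were at 0.204 and 0.0822 CPM and B cells at 0.115 and 0.0508 CPM. Treml4 was spread more widely. Members held 20.9% and 19.1% of its UMIs, and neutrophils, at 24.7 and 22.8 CPM, carried it in 19.7% and 21.3% of cells. Adgre4 was next highest in classical monocytes (69.8 and 59.8 CPM), and members held 52.9% and 41.4% of it. Pparg had a second source in CAR cells, which stood at 307 and 456 CPM against 610 and 476 CPM in members. Cd36 was lower in B cells, at 12.9 and 16.5 CPM, than in members, at 544 and 446 CPM. After each cell was thinned to 5000 UMIs, Ace was found in 84.5% of femur and 72.9% of ectopic members and in 0% of B cells, while Adgre4 was found in 96.9% and 91.4% of members and in 0.41% and 0.498% of B cells, which should lack it.

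The first comparison asked how many of these cells each marrow held. Among cells outside the CAR gate (10389 femur, 6602 ectopic, all members counted in), members were 1.41% (1.2 to 1.66) in the first and 1.09% (0.854 to 1.37) in the second, so the ectopic share was 0.771 times the femur share (0.573 to 1.03). Set against classical monocytes (Csf1r, Ccr2 and at least 3 F13a1 UMIs, no Ace or Treml4, fewer than 2 UMIs of the progenitor genes Mpo and Elane; 548 femur and 476 ectopic cells), members were 21.2% (18.2 to 24.4) of 695 femur monocytes and 13.1% (10.4 to 16.3) of 548 in ectopic marrow, which gives 0.621 (0.462 to 0.829). Without cells that held RNA of another lineage the shares of monocytes were 20.8% and 10.9%, a ratio of 0.526 (0.372 to 0.733). When the rule was applied after thinning every cell to 5000 UMIs, the shares were 18% and 11.7%, a ratio of 0.649. A strict rule, with at least 4 UMIs of Ace and Treml4 and none of F13a1, gave 15.6% and 8.99%. The ectopic library had the lower share under each of these rules. Sorting and the mixing of fractions come before the count, and their part in the shares was not tested.

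Just inside the rule, the 17 femur and 6 ectopic members with exactly 2 UMIs of Ace and Treml4 had Adgre4 at 1130 and 790 CPM. Just outside it, 14 and 6 cells with 1 Ace and no Treml4 UMI had 428 and 232 CPM. Another 71 femur and 36 ectopic cells had at least 2 Treml4 UMIs but no Ace. They stood at 116 and 133 CPM of Adgre4, and 53 and 28 of them held RNA of another lineage. The 41 femur and 29 ectopic cells that met the Ace and Treml4 rule but carried at least 3 F13a1 UMIs had levels of several genes between those of the 2 monocyte kinds. Their Adgre4 was 423 and 479 CPM, their Nr4a1 227 and 269 CPM and their Ly6c2, the gene of the Ly6C antigen, 659 and 1020.5 CPM. Ccr2, the receptor that brings monocytes out of the marrow, was at 1133 and 1464 CPM, in the ectopic library above classical monocytes too (1364 CPM).

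The second comparison set members against classical monocytes of the same library. Both kinds of cell were chosen on F13a1, Ace, Treml4 and Csf1r, and classical cells also on Ccr2, so the ratios are a description. A gene was called higher or lower at 2-fold the same way in both libraries, a rule of size, which 3.91% and 6.63% of the 9541 genes measured reached. Genes were measured where members and classical monocytes together had at least 50 UMIs in each library. Of the 22 genes measured on the nonclassical list, Ace and Treml4 left out, 21 were higher in members and none lower, with a median log2 ratio (of the smaller change of the 2 libraries) of 2.89 against 0 over all genes. The exception was Cx3cr1, the fractalkine receptor, at 1.84-fold (femur) and 1.67-fold (ectopic). The list includes the markers Adgre4, Pparg and Cd36 and was chosen with earlier results of these data known. The count is therefore a description and no independent check of the label. Without RNA of another lineage in either kind of cell, 383 of 8901 genes were higher and 667 lower.

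**Figure D3:**
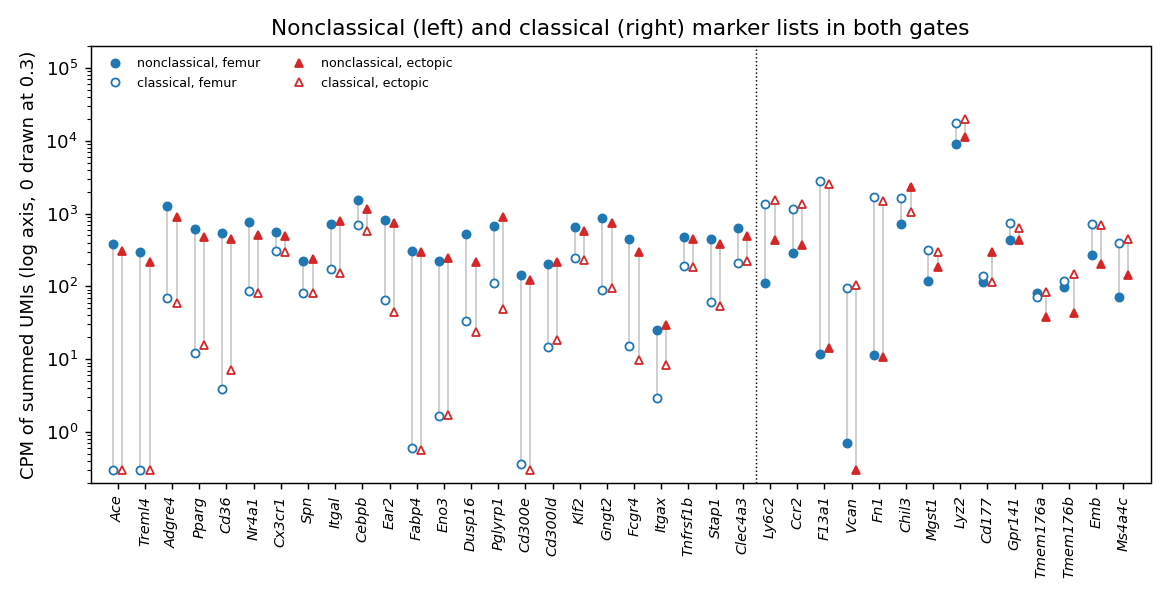
CPM (log axis, 0 drawn at 0.3) of genes of the nonclassical list (left of the dotted line) and the classical list (right) in members (filled) and classical monocytes (open), femur in blue and ectopic in red. Fabp4, Eno3 and Cd300e lie more than 100-fold higher in members, and F13a1, Fn1 and Vcan lie lowest.

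Among transcription factors, Nr4a1, which the conversion to nonclassical monocytes depends on, stood at 776 CPM in femur members against 85.1 in classical monocytes, and at 502 against 81.9 CPM in ectopic ones. The ratios were 9.12-fold (8.29 to 10) and 6.12-fold (5.46 to 6.86). Cebpb, the other factor of that conversion, was 2.21-fold and 2.02-fold higher. Pparg (50.6-fold and 30-fold), the Notch target Hes1 (45.4-fold and 27.3-fold) and the Wnt effector Tcf7l2 (24-fold and 31.1-fold) were the highest of the factors named, and their smaller log2 ratios without RNA of another lineage were 5.25, 5.50 and 5.86. Pou2f2 (OCT2) was 4.71-fold and 3.15-fold higher. Of 27 factors measured, 7 were higher (Klf2 completes them) and 1, Cebpa, the C/EBP factor of myeloid progenitors, lower (0.423-fold and 0.3-fold). Irf8, a factor of monocyte progenitors, stood at 0.563-fold and 0.518-fold.

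Of 14 survival genes measured, 3 of the BCL2 family were higher in members and 1 gene was lower, with a median log2 ratio of -0.03. Bcl2 stood at 234 and 286 CPM against 36.8 and 47.2 in classical monocytes, a smaller log2 ratio of 2.60, or 3.70 without RNA of another lineage. Bcl2a1b was 34.1-fold and 55.5-fold higher and Bcl2a1d 28.3-fold and 33.2-fold. These last genes are near-identical copies, so the split of counts between them is uncertain. In the same list Bax, which promotes cell death, was at 0.631-fold and 0.698-fold. The lower gene was Il3ra, a chain of the interleukin-3 receptor, at 0.305-fold and 0.296-fold.

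Of 20 genes of adhesion and migration, 5 were higher in members and 2 lower. S1pr5, the sphingosine-1-phosphate receptor that lets nonclassical monocytes leave the marrow, was at 118 and 85.5 CPM, which was 26.5-fold (18.5 to 39) and 31.5-fold (19.9 to 51.7) over classical cells. The integrin gene Itgal (LFA-1 alpha chain) was 4.22-fold and 5.12-fold higher and Spn (CD43) 2.71-fold and 2.94-fold. Ccr2, which chose the classical cells, was at 288 and 369 CPM against 1146 and 1364. Itgb7, a chain of the gut-homing integrin, was at 0.325-fold and 0.364-fold, the smaller log2 change being -0.97 without RNA of another lineage.

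Receptors for antibody and paired receptors included Fcgr4, the receptor for IgG2 immune complexes, at 452 and 295 CPM against 15.2 and 9.84 (29.8-fold and 30-fold). Cd300e, an activating receptor of the CD300 family, had 205 UMIs in femur members against 3 in classical monocytes, and 128 against 0 in the ectopic library. Lilra5, another activating receptor, had 102 and 37 UMIs against 2 and 1. By contrast Fcgr1, the high-affinity IgG receptor, stood at 0.446-fold and 0.613-fold, and 9 of 23 genes were higher and 1 lower (Trem2, 0.408-fold and 0.277-fold).

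Lipid handling set members apart in both directions. Fabp4, a fatty acid carrier and PPARγ target, was at 311 and 293 CPM against 0.603 and 0.566, ratios of 515-fold (219 to 1595) and 518-fold (219.6 to 1607). Cd36 was 141-fold (99 to 208) and 63.6-fold (48.7 to 84.3) higher, a smaller log2 ratio of 5.99, or 6.61 without RNA of another lineage. Apoe, the apolipoprotein of cholesterol transport, was 6.14-fold and 3.76-fold higher, and the phospholipid transfer protein gene Pltp 15.8-fold and 4.03-fold. The cholesterol exporter Abca1 was 4.32-fold and 2.81-fold higher and Abcg1 3.42-fold and 2.17-fold. Fabp5 (0.14-fold and 0.127-fold), the lipase gene Lpl (0.139-fold and 0.466-fold, but a smaller log2 change of -0.73 without RNA of another lineage) and the scavenger receptor gene Msr1 (0.298-fold and 0.301-fold) were lower. In all, 7 of 17 genes were higher and 6 lower.

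Other high ratios were those of Eno3, the muscle-type enolase (131-fold and 144-fold), and Dnah12, a dynein heavy chain (226-fold and 146-fold). Ear2, an eosinophil-type ribonuclease of the nonclassical list, was at 819 and 746 CPM (12.7-fold and 16.5-fold). Among the lowest were Fn1 (fibronectin), at 11.3 and 10.6 CPM against 1696 and 1469, Vcan (versican), with 1 and 0 UMIs in members, the annexin partner S100a10 (0.0481-fold and 0.0488-fold) and the galectin gene Lgals1 (0.115-fold and 0.0342-fold). Of 17 cell cycle genes, 11 were lower and none higher. Mki67, the marker of dividing cells, stood at 37.3 and 53.8 CPM in members against 306 and 266 in classical monocytes. Members without RNA of another lineage had 7.24 and 5.59 CPM of Mki67, from 7 and 3 UMIs. Of the 13 classical-list genes measured, 6 were lower and none higher.

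Members were not uniform. After thinning to 5000 UMIs, 69% (60.3 to 76.8) of 129 femur and 70% (57.9 to 80.4) of 70 ectopic members had a Cd36 UMI. To describe what went with it, thinned members without RNA of another lineage were split by Cd36. In the femur 78 cells had a Cd36 UMI and 26 did not, and in the ectopic library 38 and 12. Cells with Cd36 had more Fabp4 (459 against 200 CPM in femur cells, 2.29-fold, 1.52 to 3.61, and 621 against 117 CPM in ectopic cells, 5.32-fold, 2.5 to 13.5). They also had more Nr4a1, at 1.64-fold (1.29 to 2.11) and 1.96-fold (1.27 to 3.16), and more Agmo, an enzyme of ether lipid breakdown, at 5.83-fold (1.5 to 50.1) and 5.68-fold (1.46 to 48.7), each from 2 UMIs in cells without Cd36. Ccr2 was lower in them, at 0.623-fold (0.453 to 0.865) and 0.363-fold (0.253 to 0.522), as was Ly6c2 at 0.333-fold (0.109 to 1.02) and 0.029-fold (0.0129 to 0.0573). The ectopic Ly6c2 ratio rests on 98 UMIs among the 12 cells without Cd36, and its interval leaves out the spread between cells. Ace (0.794-fold and 1.07-fold) and Adgre4 (1.18-fold and 1.17-fold) were nearer to even between the 2 sets of cells.

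A smaller set carried genes of antigen presentation. H2-Aa, a chain of MHC class II, had a UMI in 18.6% (12.3 to 26.4) of femur and 21.4% (12.5 to 32.9) of ectopic members after thinning, against 45.1% and 66.9% of B cells, which express it, and 13.2% and 24.1% of classical monocytes. Most class II RNA sat in few cells. Class II genes made up at least 1% of the UMIs of 11 femur and 7 ectopic members, or of 9 and 5 without RNA of another lineage, and 5 cells held 77.1% and 90% of the H2-Aa UMIs of these last. Among them, cells with H2-Aa had Cd209a, a lectin of monocyte-derived dendritic cells, at 144 CPM (femur) and 233 CPM (ectopic), against 0 in cells without. Members without RNA of another lineage had not been screened with the list of conventional dendritic cells, which includes Cd209a. Adgrl3, an adhesion receptor gene, was 15.7-fold (8.48 to 30.9) and 17.4-fold (3.8 to 162) higher in cells with H2-Aa. Cd36 was lower in them, at 0.409-fold (0.268 to 0.602) and 0.365-fold (0.211 to 0.597), as was Fabp4 at 0.432-fold and 0.465-fold, while Ace was at 1.07-fold and 1.19-fold.

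The third comparison set ectopic against femur members. At least 1.5-fold was called higher or lower, again a rule of size, for the 6279 genes with at least 50 UMIs over both libraries. In the ectopic library 5.92% of genes were higher and 11.1% lower (372 and 698 genes), with a median log2 ratio of -0.10. Under TMM scaling the split was 484 higher and 524 lower. Without RNA of another lineage, 6.1% of 4869 genes were higher and 6.98% lower (297 and 340) and the median was -0.004. Classical monocytes had 7.1% of 10774 genes past the same fold, 2.91% higher and 4.2% lower. Their sums hold more UMIs per gene, and the difference between the 2 kinds of cell was not tested. The strict rule, which asks for at least 4 UMIs of Ace and Treml4 and none of F13a1, left 101 femur and 47 ectopic members (82 and 32 without RNA of another lineage), and is given beside the gene groups and genes it moves most. Under it 308 of 5410 genes were higher and 666 lower. Without RNA of another lineage as well, 247 of 3894 genes were higher and 306 lower.

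Most genes of the nonclassical list stood within 1.5-fold between the tissues, as did most genes measured. None of the 22 nonclassical-list genes was higher by 1.5-fold and 3 were lower (Dusp16, Nr4a1 and Fcgr4), beside 5.92% and 11.1% over all genes. Without RNA of another lineage 1 of 22 (Dusp16) was lower and none higher, beside 6.98% and 6.1% over all genes, and the median log2 ratio was -0.07. Adgre4 was at 0.697 (0.643 to 0.755) times the femur level and at 0.765 (0.697 to 0.838) without those cells. Pparg was at 0.861 (0.756 to 0.978), Cd36 at 0.931 (0.814 to 1.06), Cx3cr1 at 0.927 (0.813 to 1.05), Ear2 at 0.995 (0.894 to 1.11) and Fabp4 at 1.09 (0.921 to 1.29) times, all without those cells. Dusp16, a phosphatase of the JNK pathway, fell outside this range: femur members stood at 523 CPM and ectopic members at 215, a ratio of 0.412 (0.353 to 0.479), or 0.482 (0.402 to 0.574) without those cells. Ratios in classical monocytes were 0.713 for Dusp16 and 0.857 for Adgre4.

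**Figure D4:**
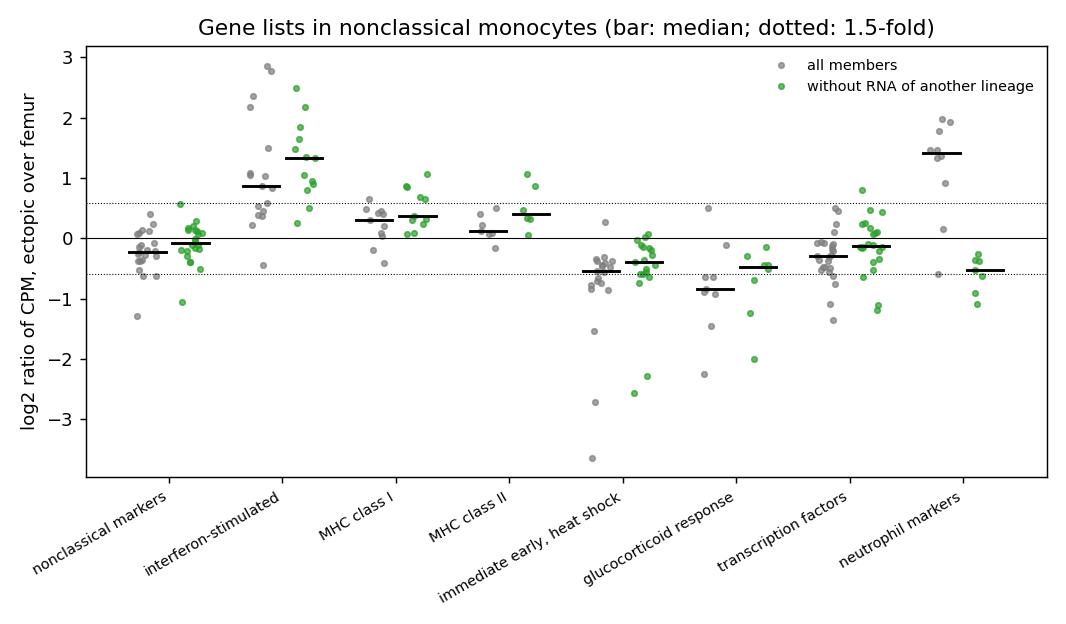
Log2 ratio of CPM, ectopic over femur, for the genes of 8 lists in all members (grey) and in members without RNA of another lineage (green); each point is a gene with at least 50 UMIs, bars are medians and dotted lines mark 1.5-fold. The interferon list has the highest median without those cells (1.34), and the neutrophil list has a median of 1.41 with them and -0.52 without.

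Interferon-stimulated genes, which cells switch on after contact with type I or II interferon, were higher in ectopic members under the rule as written, but not under the strict rule. Of 17 measured, 11 were higher and none lower (median log2 ratio 0.87), and without RNA of another lineage 11 of 13 were higher and none lower (1.34). Irf7, the factor that amplifies the response, was at 35.2 CPM in members of the femur and at 99.9 CPM in those of ectopic marrow, a ratio of 2.84 (2.01 to 4.06), or 4.5 (3.03 to 6.83) without those cells. Zbp1, a sensor of foreign nucleic acid, was at 2.12 (1.39 to 3.27) and 3.6 (2.16 to 6.15), Ifi203 at 2.08 and 3.14, and Oasl2 at 1.79 and 2.77. Under the strict rule 1 of 10 was higher and 1 lower (median log2 ratio -0.07), and without RNA of another lineage none of 6 was either (0.22), with Irf7 at log2 ratios of 0.29 and 0.47. The 46 femur and 25 ectopic members it leaves out have fewer Ace and Treml4 UMIs or carry F13a1. Isg15, a ubiquitin-like modifier, had 9 UMIs in femur and 45 in ectopic members, and the antiviral enzyme gene Rsad2 9 and 48.

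A few cells held much of this RNA. Of the ectopic UMIs without RNA of another lineage, the 5 highest cells for each gene held 85% of Isg15, 77.8% of Irf7, 60% of Ifi203, 54.4% of Oasl2 and 47.9% of Zbp1, where 5 cells are 9.62% of the 52. The share of a cell's UMIs from the whole list, among members without such RNA, had a lowest value, median and highest value of 0, 0.306 and 1.20% in femur cells, set against 0.0855, 0.430 and 2.09% in ectopic cells. The ranges overlapped, with 1 femur and 4 ectopic members at 1% or more. Those 4 ectopic members had UMIs of Ace and Adgre4, but none of Treml4 or Cd36 and at most 1 of Pparg. The femur member had UMIs of Ace, Treml4 and Adgre4, but none of Pparg or Cd36. Ifitm3, which blocks virus entry, was at 1.17 (1.11 to 1.24) and 1.42 (1.34 to 1.52). In classical monocytes 3 of 21 interferon genes were higher and none lower, with Irf7 at 1.35 (1.21 to 1.5) and Isg15 at 1.35 (1.14 to 1.59).

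Of 11 genes of antigen presentation on MHC class I, 1 was higher with all members, and 5 were without RNA of another lineage (median log2 ratio 0.37), with none lower in either. None of 11 was past 1.5-fold under the strict rule, and 2 of 10 were higher with both limits. Psmb9 and Psmb8, subunits of the immunoproteasome, were at 1.58 (1.21 to 2.06) and 1.4 (1.17 to 1.68) with all members and at 2.1 (1.54 to 2.87) and 1.61 (1.3 to 1.99) without those cells, and the peptide transporter gene Tap1 at 1.36 and 1.83. Under the strict rule the log2 ratios of Psmb9 and Psmb8 were 0.45 and 0.28. The class I chain H2-K1 was at 0.878 and 1.06, though it shares reads with near-identical class I genes. For class II, 7 genes were measured and none was past 1.5-fold with all members, and 2 of 6 were higher without RNA of another lineage (median log2 ratio 0.40). With the strict rule as well, 1 of 6 was higher and 1 lower (-0.35). Cd74, the invariant chain, was at 1.05 (0.981 to 1.13) in members and at 2.5 (2.42 to 2.58) in classical monocytes, where 7 of 8 class II genes were higher.

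Ly6c2, the gene whose product is low on these cells by definition, was higher in the ectopic library. Femur members stood at 111 (94.6 to 130.1) CPM and ectopic members at 437 (398 to 479) CPM, a ratio of 3.93 (3.27 to 4.74), against 1341 and 1544 CPM in classical monocytes. Without RNA of another lineage it was at 26.9 and 423 CPM, but 5 cells held 91.2% of those ectopic UMIs. Its log2 ratio, 1.97 under the rule as written and 3.98 without those cells, was 1.37 under the strict rule and 0.71 with both limits. After thinning, 11.5% (6.11 to 19.3) of 104 femur and 32% (19.5 to 46.7) of 50 ectopic members without such RNA had a Ly6c2 UMI. In B cells the shares were 13.8% and 10.5%. The femur share was thus no higher than that of B cells and the ectopic share was. B cells held 91.1 and 62.3 CPM of Ly6c2, in the femur more than the 26.9 CPM of these members. Whether B cells measure stray RNA of this gene was not tested. Ly6c1, a near-identical copy of Ly6c2, may share its reads. Members with 1 or 2 F13a1 UMIs, 13 femur and 11 ectopic cells, had Ly6c2 at 271 and 1052 CPM, and those with none 92.7 and 276 CPM.

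On the classical list as a whole, 5 of 12 genes were higher and 2 lower, and 4 of 10 were higher without RNA of another lineage, but none of 8 with the strict rule as well. Ccr2 was at a ratio of 1.28 (1.11 to 1.48), or 1.64 (1.4 to 1.92) without those cells. Plac8, a small cysteine-rich protein gene of many myeloid cells, stood at 768 and 1253 CPM, a ratio of 1.63 (1.5 to 1.77), or 2.64 (2.4 to 2.91) without those cells. Under the strict rule the log2 ratios of Ccr2 and Plac8 were 0.07 and 0.29, and with both limits 0.41 and 0.64. Ms4a4c was at 2.03 and 2.64, and 5 cells held 74.8% of its ectopic UMIs without those cells, and its log2 ratio was -0.46 under the strict rule. Fn1 (16 and 11 UMIs) and Vcan (1 and 0) stayed near 0 in both tissues.

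A few cells held most UMIs of several genes with the highest ratios. Cxcl10, a chemokine induced by interferon, had 1 UMI in femur and 98 in ectopic members, and 5 ectopic cells held 99% of these. Ptgs2, which makes prostaglandins, had 5 and 44, the ectopic ones all in 5 cells. Olr1, a receptor for oxidized lipoprotein, was at 14.1 and 104 CPM, with 76.9% of ectopic UMIs in 5 cells. Lpl was at 16.9 and 88.4 CPM, a ratio of 5.23 (3.31 to 8.57), or 5.73 (3.51 to 9.72) without RNA of another lineage, and was found in 9.84% and 28.8% of those cells.

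Some immediate early and heat shock genes, which respond within minutes to growth signals and stress, including that of tissue digestion, were lower in ectopic members: 9 of 20 measured, with none higher (median log2 ratio -0.55), and 6 of 19 without RNA of another lineage (-0.39). Egr1, a zinc finger factor of this class, stood at 251 (225 to 278) and 38.4 (27.5 to 52.3) CPM, a ratio of 0.153 (0.108 to 0.213), or 0.205 (0.132 to 0.306) without those cells. Hspa1b, a heat shock chaperone, had 220 and 13 UMIs (0.0806 and 0.17), though its counts cannot be parted cleanly from those of its near copy Hspa1a (0.344 and 0.6). Jun was at 0.551 (0.498 to 0.609) and Fos at 0.729 (0.663 to 0.8). Their log2 ratios were -0.86 and -0.46, but -0.59 and -0.17 without RNA of another lineage. Nr4a1, both an immediate early gene and a factor of these cells, was at 0.646 (0.581 to 0.718), or 0.764 (0.677 to 0.86) without those cells. Classical monocytes had 3 of 20 of the list lower, with Egr1 at 0.709 and Hspa1b at 0.255. Under the strict rule 8 of 19 were lower, and 3 of 19 without RNA of another lineage as well, Egr1 at a log2 ratio of -1.99 among them. Over all genes 666 of 5410 and 306 of 3894 were lower under these 2 settings.

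Of 9 genes that glucocorticoids raise, 7 were lower with all members (median log2 ratio -0.84) and 3 of 8 without RNA of another lineage (-0.47), none higher. Ddit4, an inhibitor of mTORC1, was at 68.3 and 14.4 CPM, a ratio of 0.211 (0.114 to 0.365) or, without those cells, 0.251 (0.125 to 0.462), and the clock gene Per1 at 0.365 (0.229 to 0.562) and 0.427 (0.24 to 0.72). Zbtb16 was at 0.541 and 0.617, Tsc22d3 (GILZ) at 0.641 and 0.736, and Dusp1, which this list shares with the one before, at 0.56 and 0.707. Sgk1 was at 0.923 and 0.816. The strict rule gave 5 of 9, and 4 of 8 with both limits. In classical monocytes 6 of 10 were lower, with Fkbp5 at 0.291, Tsc22d3 at 0.498 and Ddit4 at 0.322.

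Of 25 transcription factors measured, 4 were lower in ectopic members and none higher, beside 11.1% and 5.92% over all genes. Without RNA of another lineage, the shares over all genes were 6.98% lower and 6.1% higher. Hes1, which Notch signals raise, was at 251 CPM in femur members against 99 in ectopic ones, a ratio of 0.394 (0.313 to 0.491), or 0.464 (0.356 to 0.599) without RNA of another lineage. Without those cells Runx3 was at 0.441 (0.214 to 0.842) and Relb at 0.641 (0.37 to 1.07), the other 2 of 22 that were lower, and 1 of the 22 was higher.

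Of 20 genes of adhesion and migration, 3 were higher and 3 lower in ectopic members, beside 5.92% and 11.1% over all genes. Of 17 without RNA of another lineage, 3 were higher and 2 lower, beside 6.1% and 6.98% over all genes. Pecam1 (CD31), an adhesion molecule of vessel walls and leukocytes, was at 118 and 39.4 CPM, a ratio of 0.335 (0.232 to 0.474), or 0.434 (0.274 to 0.666) without RNA of another lineage. Icam1, which binds the integrin LFA-1, was at 2.14 (1.31 to 3.58) and 2.62 (1.48 to 4.73), and Cd9, a tetraspanin, at 1.86 (1.56 to 2.22) and 2 (1.47 to 2.73). Off these lists, Pde3b, a phosphodiesterase that breaks down cyclic AMP, was at 349 and 72.1 CPM and was found in 77% and 38.5% of members without such RNA. Cxcr4, the CXCL12 receptor that holds cells in marrow, was at 206 and 105 CPM, a ratio of 0.507 (0.404 to 0.634) or, without those cells, 0.48 (0.351 to 0.648), and at 0.59 (0.533 to 0.652) in classical monocytes.

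Of 15 lipid genes, 1 was higher and 3 lower, with and without RNA of another lineage. Over all genes 5.92% were higher and 11.1% lower with all members, and 6.1% and 6.98% without such RNA. Apoe stood at 4508 (4399 to 4620.2) CPM in femur members against 2332 (2240.1 to 2427) in ectopic ones, a ratio of 0.517 (0.493 to 0.542), or 0.572 (0.541 to 0.604) without RNA of another lineage, and at 0.844 (0.814 to 0.876) in classical monocytes. Without those cells Pltp was at 0.619 (0.471 to 0.807) and Abca1 at 0.628 (0.422 to 0.916), the others that were lower, while Abcg1 was at 0.835 (0.675 to 1.03). Lpl, described above, was the gene that was higher. Fabp4 and Cd36, which stood far over classical monocytes, were near even between the tissues.

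Response genes of BMP and TGF-β, which the implanted protein could reach, were mostly within 1.5-fold: of 11 measured, none was higher and 2 lower, and of 8 without RNA of another lineage none was past 1.5-fold. The shares over all genes were 5.92% higher and 11.1% lower, or 6.1% and 6.98% without such RNA. Id2, a target of BMP signalling, stood at 59.2 and 63.4 CPM (1.07 (0.764 to 1.5)). Smad7, an inhibitor of TGF-β signals, was at 0.538 (0.275 to 1). Its log2 ratio was -0.893, or -0.999 without RNA of another lineage, where it had too few UMIs to be among the 8. The receptor gene Acvr1 was at 0.424 (0.215 to 0.787), a log2 ratio of -1.24, or -0.15 without RNA of another lineage.

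Some of the highest and lowest ratios over all members belonged to other lineages' genes. The log2 ratios of Cxcl10 (7.06), Olr1 (2.88) and Lpl (2.39), described above, were higher than that of Ltf (1.97). Camp, Ngp and Ltf, granule proteins of neutrophils, were at 3.42, 3.82 and 3.93 with all members and at 0.783, 0.833 and 0.532 without RNA of another lineage. Thinned cells held a Camp UMI in 51.2% and 60% of members and in 52.8% and 49.9% of B cells. At the low end, the bone matrix genes Ibsp and Spp1 had 443 and 1030 UMIs in femur members against 0 and 19 in ectopic ones, and 5 femur cells held 99.3% and 100% of these. Of the femur members, 3 also met the rule for CAR cells.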

How the data were processed

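Single-cell RNA was measured with the 10x Genomics Chromium 3ʹ v3.1 kit in 1 femur and 1 ectopic marrow library. The deposited values are raw UMI counts per gene and barcode (34184 genes, 11148 and 7214 barcodes), for which the file headers name Cell Ranger 7.0.1, and the submitters' processing notes name GRCm39. Cells needed 500 UMIs, 300 genes and at most 10% mitochondrial UMIs. The members, gene lists and comparisons were chosen with earlier results of these data known. Raw counts of a gate's cells were summed and scaled to CPM. Ratios carry exact conditional binomial intervals, shares Clopper-Pearson intervals, counts Poisson intervals, at 95%; PCR copies were collapsed by UMI upstream. Where a sum was at 0, calls used a floor of 3 UMIs per library. Doublets were scored against simulated pairs and called at 0.8% per 1000 cells, but not removed in the main values. The limits on RNA of another lineage, alone and with the strict rule, were chosen after the data were seen. With 1 library per group no test was run.

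Named genes were the markers and rule genes, up to 2 highest and 2 lowest of each of 39 lists, the 10 highest and lowest ectopic-over-femur and 12 highest and lowest over-classical ratios above 100 CPM, and the genes that differed most between members with and without Cd36 or H2-Aa; any other gene was picked with its values in view. Some of these genes are not reported here. The interval code was tested on simulated data. Alternatives were other cell filters, gates, doublet removal, scaling (TMM), thinning, minimum counts and folds. TMM factors came from edgeR 4.0.16 (R 4.3.3), and all else from Python 3.11.15 with scipy 1.17.1, numpy 2.4.6, scikit-learn 1.9.0 and pandas 2.3.3.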

Additional observations from a re-analysis of the deposited data

Results flagged for a closer look

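Chil3, a chitinase-like protein gene of classical monocytes and neutrophils, lay on opposite sides of the classical monocytes in the 2 libraries: its log2 ratio, members over classical monocytes, was -1.17 for femur and 1.15 for ectopic cells. Members stood at 715 and 2298 CPM, and 5 cells held 85.2% and 56.1% of these UMIs. Without RNA of another lineage they stood at 114 and 237 CPM, against 1609 and 1037 CPM in all classical monocytes. Cxcl10 did likewise, at -6.43 and 1.17, from 1 and 98 UMIs, 99.0% of the latter in 5 cells. Neither difference was tested.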

How the results depend on the processing

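The ectopic share was lower under each of the alternatives run for it, with log2 ratios from -1.10 to -0.55 among monocytes. Genes 1.5-fold higher and lower in ectopic members, 372 and 698 as reported, were 325 and 405 without doublets, 85 and 157 in members with no UMI of 8 other-lineage genes (27 and 11 cells), 226 and 321 after thinning, 767 and 1439 from 20 UMIs, 117 and 203 at 2-fold, 297 and 340 without RNA of another lineage, and 247 and 306 with the strict rule as well. Against classical monocytes, 373 and 633 genes became 566 and 381 without the 8 genes, 247 and 369 after thinning, and 178 and 262 at 3-fold. TMM scaling moved the median log2 ratio by 0.09. Where fewer cells or UMIs entered, fewer genes could be measured; otherwise the cause was not tested.

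Camp, Ltf and Ngp turned from higher to lower in ectopic members without RNA of another lineage (log2 -0.35, -0.91 and -0.26), and with the strict rule as well (-0.00012, -1.28 and -0.25), Ngp also without the 8 genes (-0.43), where all 3 were lower than in classical monocytes (-3.49, -1.63 and -1.45). Under the strict rule Ms4a4c, Oasl2 and Fcgr1 turned to -0.46, -0.082 and -0.21, and with both limits Ms4a4c, Fcgr1 and Acvr1 to -0.47, -0.069 and 0.16. Elane turned to 0.40 without doublets. No paired analysis was possible because each tissue had 1 library. Values from 72 and 147 cells rest on few UMIs for low genes, and a fold near 1.5 was often within counting error.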
